A study of Mus musculus with 9 samples.

Results

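The genes described here are 6 transcription factors of the epithelial-to-mesenchymal transition (EMT), Snai1, Snai2, Zeb1, Zeb2, Twist1 and Twist2, and 4 mesenchymal markers, Cdh2, Cdh11, Vim and Fn1. They were selected by symbol from the deposited table, which lists 54532 genes, and all 10 symbols were found once. The libraries were made from the lambdoidal junction, where the facial prominences that form the upper lip and primary palate meet, of embryos of the mouse strain C57BL/6J. The stages were E10.5, E11.5 and E12.5. There were 3 libraries at each of them, each made from tissue pooled over many embryos, so a library averages over epithelium, mesenchyme and any other cells that were dissected with them. The labels name no treatment or mutant allele, and developmental stage is the only difference between the groups that they give.

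In EMT, epithelial cells give up their junctions and polarity and take on the shape and motility of mesenchyme. Snail and Zeb proteins are zinc finger repressors that bind E-box sequences in epithelial genes such as Cdh1 (E-cadherin), and Twist proteins are basic helix-loop-helix factors that bind E-boxes as dimers, often with an E protein. Cdh2 encodes N-cadherin, Cdh11 a cadherin of loose mesenchyme, Vim the intermediate filament protein vimentin, and Fn1 the matrix glycoprotein fibronectin. Most of the facial mesenchyme comes from cranial neural crest, which leaves the neural tube by EMT, and the epithelial seam between facial prominences is later removed as they fuse.

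All 6 factors recognise E-boxes. RefSeq starts (GRCm38.p6) were examined for 5 of the 10 genes (Snai1, Twist1, Twist2, Vim and Zeb2). Among the factors, Snai2 and Zeb1 were not examined, so nothing is said here about E-boxes before their starts. For the factors that were examined, the sequence just before the transcription start is shown where that start lay outside the exons of protein-coding genes. Each sequence is the 250 bases that end just before the start, read 5′ to 3′ on the strand of the gene, and capitals mark an E-box (CANNTG, which includes the Snail and Zeb type sites CAGGTG and CACCTG, searched on both strands).
Snai1, chr2:167537945-167538194, plus strand: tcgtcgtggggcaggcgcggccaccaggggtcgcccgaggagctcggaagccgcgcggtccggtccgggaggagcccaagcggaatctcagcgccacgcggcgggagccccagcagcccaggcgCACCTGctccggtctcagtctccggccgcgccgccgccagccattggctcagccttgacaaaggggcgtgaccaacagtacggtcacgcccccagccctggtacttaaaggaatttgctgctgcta
Zeb2, chr2:45117443-45117692, minus strand: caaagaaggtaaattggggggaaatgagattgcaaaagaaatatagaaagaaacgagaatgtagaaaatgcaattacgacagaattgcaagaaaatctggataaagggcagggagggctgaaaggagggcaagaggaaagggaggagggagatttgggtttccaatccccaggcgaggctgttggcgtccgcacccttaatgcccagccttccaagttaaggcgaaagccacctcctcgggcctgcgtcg
Twist1, chr12:33957421-33957670, plus strand: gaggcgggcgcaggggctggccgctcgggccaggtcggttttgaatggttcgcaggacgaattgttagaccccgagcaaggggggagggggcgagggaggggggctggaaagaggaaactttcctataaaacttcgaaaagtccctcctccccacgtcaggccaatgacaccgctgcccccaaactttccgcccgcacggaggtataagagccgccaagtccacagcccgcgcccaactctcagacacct
Twist2, chr1:91801211-91801460, plus strand: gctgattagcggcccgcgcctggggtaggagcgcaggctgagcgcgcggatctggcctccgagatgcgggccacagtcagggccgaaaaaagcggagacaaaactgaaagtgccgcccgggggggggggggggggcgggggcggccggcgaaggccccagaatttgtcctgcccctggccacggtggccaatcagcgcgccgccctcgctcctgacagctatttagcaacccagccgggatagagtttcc
The Snai1 sequence held 1 match, CACCTG, 126 to 121 bases before the start. The other 3 sequences held no match to CANNTG. Of 32851 windows of the same length in the RefSeq table, 17.2% held CAGGTG or CACCTG and 66.2% held CANNTG, so a match in 1 of 4 sequences is a description of these letters and not of binding.

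The depth was 16581009–20836804 counts per library. Levels are given in CPM, which are counts scaled to the TMM-adjusted size of each library, and, where genes are compared with each other, in the authors' FPKM, which divides by gene length. The deposited length equals all annotated exon bases of a gene, 10266 for Zeb1 and 19942 for Zeb2. Rank orders, shares and the level of ratios in FPKM therefore depend on this length. Markers of facial mesenchyme (Pdgfra, Prrx1, Prrx2, Alx1, Alx4, Msx1 and Tfap2a) were found in every library and summed to 978–1494, 2120–2264 and 2220–2427 CPM at the 3 stages, in order of time, against 526–941, 518–546 and 742–827 CPM for 10 epithelial markers. E10.5 replicate 3 stood apart before any stages were compared. Over genes, the SD of its log2 difference from replicates 1 and 2 was 0.711 and 0.703, against 0.393 between those. At the other stages the widest pair was E12.5 replicates 2 and 3, with an SD of 0.591. The deviation of E10.5 replicate 3 from its stage mean varied with GC content (Spearman's rho −0.55 over genes, which are no independent replicates). This rho was 0.44 and 0.47 for E10.5 replicates 1 and 2, and between −0.26 and 0.27 at the other stages. The stage mean includes replicate 3, so the values of replicates 1 and 2 are not independent of its own. In E10.5 replicate 3 the mesenchymal markers summed to 978 CPM (1488 and 1494 in replicates 1 and 2), the epithelial markers to 941 CPM (526 and 602) and 6 endothelial markers to 114 CPM (308 and 301). For each of the 10 genes, the calls that change without it are given. The lists of related genes and markers were counted again without it, and these recounts are given for most but not all of them.

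The EMT genes themselves differed widely in E10.5 replicate 3. Against the mean of replicates 1 and 2, its log2 CPM differed by −1.39 for Snai1, −1.22 for Twist1, −0.80 for Fn1, −0.55 for Twist2 and −0.38 for Cdh11. Cdh2 and Zeb2 were higher there, by 0.48 and 0.41, and Zeb1 (0.050), Vim (−0.088) and Snai2 (−0.12) differed least. Snai1 and Twist1 were the most GC-rich of the 10 genes (59.8% and 59.3% of the longest transcript), and the trend over all genes at their GC content was −0.55 and −0.53, less than their own deviation. Cdh2, at 49.5% GC, deviated where the trend was −0.0037. With the GC trend of each library removed, 8 of the 10 genes passed in E11.5 vs. E10.5, where 11.3% of genes rose and 11.2% fell. Without replicate 3 the number was also 8, where 19.6% of genes rose and 20.0% fell, against 5 with all libraries and no GC correction. The part of cell composition in these differences was not tested.

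**Figure D1:**
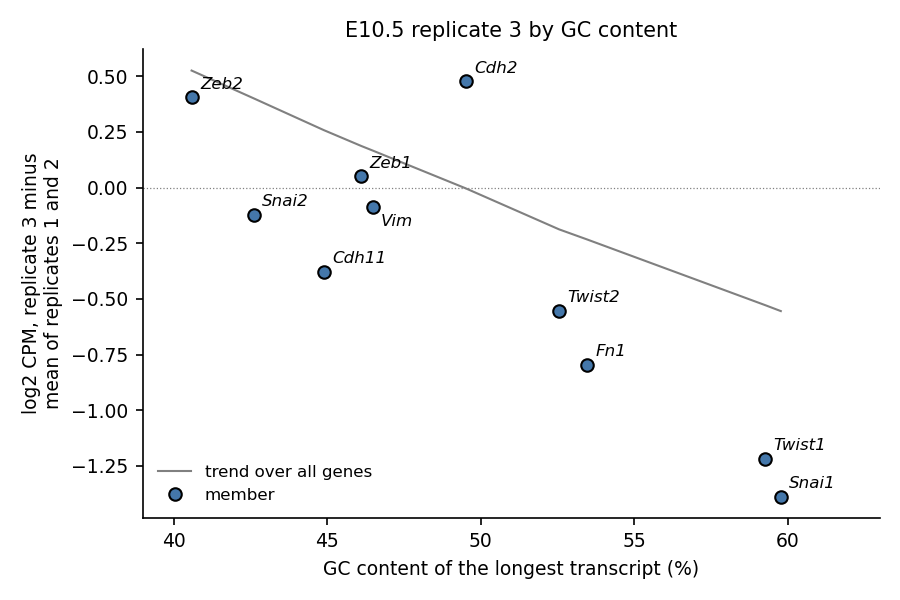
Deviation of E10.5 replicate 3 from the mean of E10.5 replicates 1 and 2 (log2 CPM, y axis) against the GC content of the longest transcript (percent, x axis) for the 10 genes, with the trend over all genes at those GC contents as a line. Snai1 and Twist1, at 59.8% and 59.3% GC, lie lowest at −1.39 and −1.22, and Cdh2 lies highest at 0.48.

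Each pair of stages was compared with the edgeR quasi-likelihood test on its 6 libraries, and a gene passed at a Benjamini-Hochberg adjusted p of at most 0.05 over all genes tested. A DEG also had a log2 fold change of 1 or more in size. All 10 genes passed the filter on low counts. In the first interval, E11.5 vs. E10.5, 4 of the 10 rose (Snai2, Zeb2, Twist2 and Cdh11) and 1 fell (Zeb1), where 6.19% of 15708 genes tested rose and 5.58% fell. Snai2 and Zeb2 were upregulated DEGs (3.46% of genes tested were). In the second interval, E12.5 vs. E11.5, 3 rose (Zeb2, Twist2 and Vim) and 0 fell, where 7.61% of 15808 genes rose and 4.57% fell. Of the genes that rose, Twist2 was an upregulated DEG (4.14% of genes tested were). At an unadjusted p under 0.05 in edgeR, and with DESeq2 at the adjusted p, 1 gene fell, Zeb1. At that unadjusted p, 4681 of 15808 genes changed in either direction, and the share of all genes with DESeq2 is not given here. Over the whole span, E12.5 vs. E10.5, 5 rose (Snai2, Zeb2, Twist2, Cdh11 and Vim) and 1 fell (Zeb1), where 14.0% of 15899 genes rose and 10.5% fell, and 4 were upregulated DEGs (Snai2, Zeb2, Twist2 and Vim, against 9.97% of genes tested). The median log2 fold change of the 10 genes was 0.75, 0.13 and 0.87 in the order of these comparisons, and that of all genes tested was −0.032, 0.019 and −0.0063. The count in the first interval was 8 without E10.5 replicate 3 (6 rose and 2 fell, where 19.6% of genes rose and 20.0% fell), and that over the whole span was 6 (5 rose and 1 fell, where 16.6% and 13.4% did). The count in the first interval was 3 if replicate 2 of either of its stages was left out, and 2 if E11.5 replicate 1 or 3 was. The shares of all genes in those fits are not given here. In bulk tissue, a lower level can mean fewer cells of a type or less RNA per cell, which cannot be told apart.

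Tested over all 9 libraries together, 7 of the 10 genes depended on stage at an adjusted p of at most 0.05, as did 28.3% of 16375 genes. The other 3 were Snai1, Cdh2 and Fn1, with adjusted p = 0.277, 0.148 and 0.0794. Twist1 passed narrowly at adjusted p = 0.0483 and passed in 8 of 15 alternative fits. The change in the second interval differed from that in the first for 1 gene, Snai2, where 1.18% of genes tested differed.

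**Figure D2:**
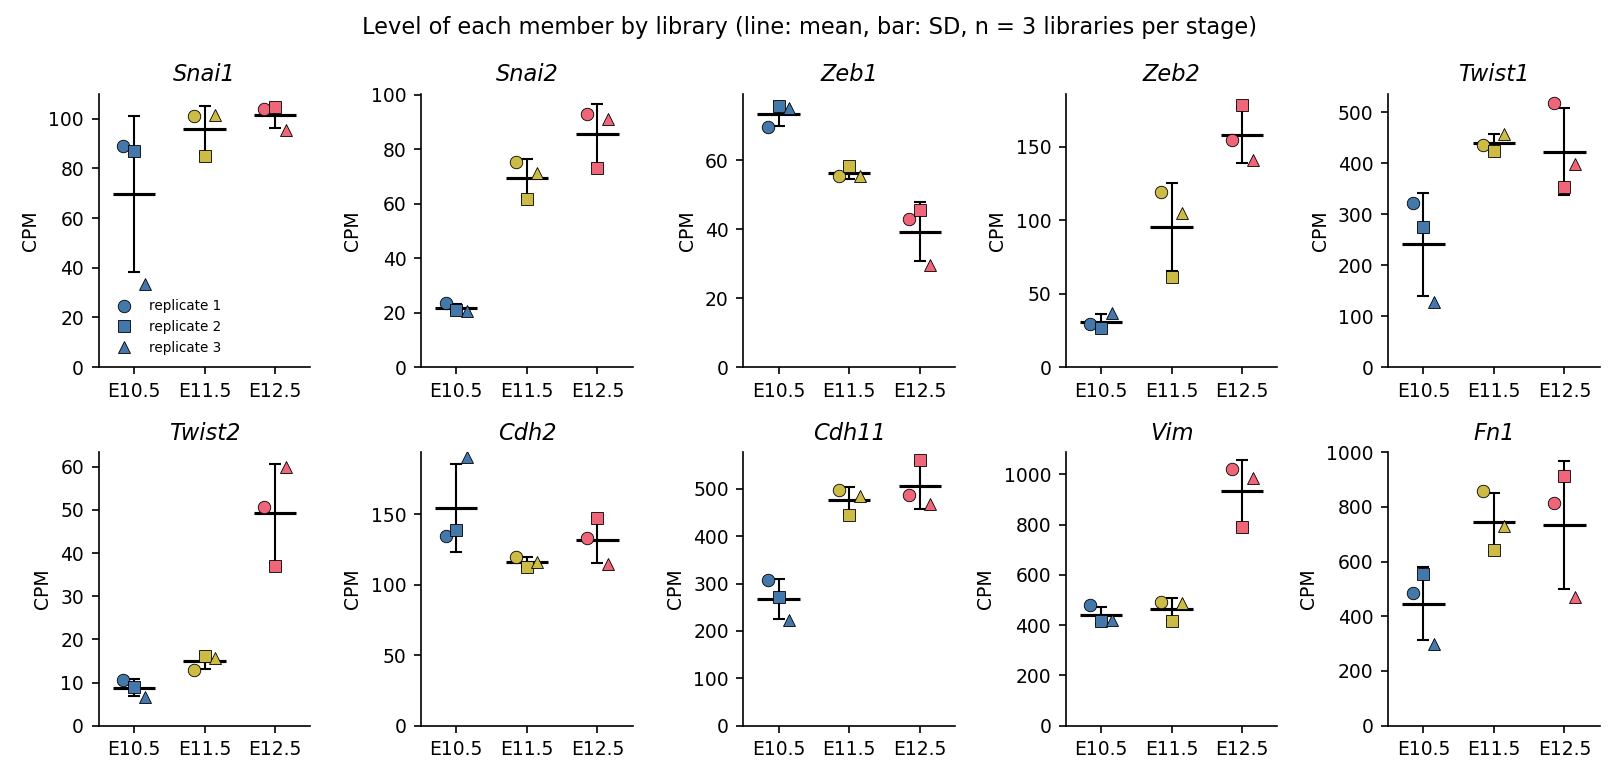
Level of the 10 genes in each library (CPM on TMM-scaled library sizes, y axis from 0) at the 3 stages, with the mean as a line and the SD as a bar (n = 3 libraries per stage). Snai2 stands at 20.5–23.5 CPM at E10.5 and 61.6–75.3 at E11.5, Twist2 reaches 36.9–59.9 CPM at E12.5 only, and the E10.5 values of Snai1 and Twist1 are spread by replicate 3.

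In the Snail family it was Snai2 (ENSMUSG00000022676) that rose. Snai2 encodes Slug, a repressor known from migrating neural crest, and lies on chromosome 16 of GRCm38 from 14705852 to 14709385, plus strand. Snai2 was at 23.5, 21.1 and 20.5 CPM in the E10.5 libraries (replicates 1, 2 and 3), 75.3, 61.6 and 71.3 CPM at E11.5, and 93.0, 73.1 and 91.0 CPM at E12.5. Every E11.5 and E12.5 library lay above every E10.5 library, while E11.5 and E12.5 overlapped. The mean rose from 21.7 ± 1.57 to 69.4 ± 7.00 CPM (SD, n = 3 libraries each), a 3.20-fold change (log2 fold change 1.68, standard error 0.12, adjusted p = 0.0010), and at E12.5 it was 85.7 ± 10.97 CPM (log2 fold change in the second interval 0.30, standard error 0.14, adjusted p = 0.169). The second change was smaller than the first by 1.37 on the log2 scale (difference −1.37, standard error 0.24, adjusted p = 0.0226). The rise of Snai2 in the first interval passed in all 6 fits that left out 1 library and in all 10 other settings, whereas the difference between the intervals was lost without E11.5 replicate 1, 2 or 3 (adjusted p = 0.203, 0.0531 and 0.167) or E12.5 replicate 1 (0.0547).

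Snai1 (ENSMUSG00000042821, chromosome 2, 167538195–167542814, plus strand) encodes Snail, a repressor of Cdh1. It was at 89.1, 86.9 and 33.6 CPM at E10.5, 101, 84.9 and 101 CPM at E11.5, and 104, 105 and 95.6 CPM at E12.5. Apart from E10.5 replicate 3, the libraries lay between 84.9 and 105 CPM. Snai1 did not pass in any of the 3 comparisons (log2 fold change 0.46, standard error 0.32, in the first interval, 0.078, standard error 0.12, in the second interval, and 0.55, standard error 0.30, over the whole span). Without E10.5 replicate 3 the first and last of these were 0.13 and 0.22. Of 10 other settings, 1 gave a call, over the whole span with no filter on low counts (0.57, adjusted p = 0.0442).

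In the Zeb family the 2 genes moved in opposite directions. Zeb2 (ENSMUSG00000026872, chromosome 2, 44983632–45117395, minus strand) is the family member expressed in premigratory neural crest. It was at 29.1, 26.7 and 37.0 CPM at E10.5, 119.6, 61.5 and 105 CPM at E11.5, and 155, 179 and 141 CPM at E12.5. The libraries of the 3 stages did not overlap, with E11.5 replicate 2 the lowest of its stage. Zeb2 rose 3.09-fold in the first interval (log2 fold change 1.63, standard error 0.25, adjusted p = 0.0066), 1.65-fold in the second interval (0.72, standard error 0.21, adjusted p = 0.0477) and 5.14-fold over the whole span (2.36, standard error 0.20, adjusted p = 1.5e-05). The first and the overall rise passed in every fit that left out 1 library, but the second passed in only 2 of 6. It was 0.47 without E11.5 replicate 2 (adjusted p = 0.138), and it was also lost without E11.5 replicate 3, E12.5 replicate 1 or E12.5 replicate 2 (adjusted p = 0.0994, 0.148 and 0.0514).

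Zeb1 (ENSMUSG00000024238, chromosome 18, 5591860–5775467, plus strand), a repressor of Cdh1 that is also widely expressed in embryonic mesenchyme and neuroepithelium, was at 69.6, 75.9 and 75.3 CPM at E10.5, 55.4, 58.5 and 55.6 CPM at E11.5, and 42.9, 45.6 and 29.6 CPM at E12.5. The libraries of each stage lay below all those of the stage before, and E12.5 replicate 3 was the lowest. Over the whole span Zeb1 fell to 0.538 of its E10.5 level (log2 fold change −0.89, standard error 0.20, adjusted p = 0.0076), and this passed in all 6 fits that left out 1 library. The fall in the first interval (−0.38, standard error 0.096, adjusted p = 0.0412) passed in only 1 of 6, the fit without E10.5 replicate 3, and the adjusted p of the other 5 was between 0.0709 and 0.202. In the second interval the log2 fold change was −0.53 (standard error 0.16, adjusted p = 0.0554).

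Twist1 (ENSMUSG00000035799, chromosome 12, 33957671–33959829, plus strand), which is needed for cranial neural crest mesenchyme, was the most abundant of the factors by FPKM. It was at 321, 275 and 128 CPM at E10.5, 436, 424 and 458 CPM at E11.5, and 518, 353 and 399 CPM at E12.5. All later libraries lay above all E10.5 libraries, but replicate 3 of E10.5 was far below the others of its stage. By the test used here, Twist1 did not pass in the first interval (log2 fold change 0.87, standard error 0.29, adjusted p = 0.0932), in the second interval (−0.061, standard error 0.15, adjusted p = 0.813) or over the whole span (0.82, standard error 0.30, adjusted p = 0.0704). Without E10.5 replicate 3 the first change was smaller but passed, at 0.57 (adjusted p = 1.2e-04), while the change over the whole span was 0.52 and did not pass. With all libraries kept, Twist1 passed in the first interval in 3 of 10 other settings, with DESeq2 (0.88, adjusted p = 0.0160), with no filter on low counts (0.88, adjusted p = 0.0056) and with the GC trend removed (0.98, adjusted p = 0.0066), and over the whole span in 5 of 10 (adjusted p between 0.0012 and 0.0345 in those 5).

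Twist2 (ENSMUSG00000007805, chromosome 1, 91801461–91848028, plus strand), also called Dermo1 and known from dermal and skeletal precursors, had the largest change of the 10 genes over the whole span. It was at 10.7, 8.94 and 6.69 CPM at E10.5, 12.9, 16.1 and 15.8 CPM at E11.5, and 50.8, 36.9 and 59.9 CPM at E12.5. The stages did not overlap, and E12.5 stood furthest from the others. Twist2 rose 3.28-fold in the second interval (log2 fold change 1.71, standard error 0.19, adjusted p = 3.0e-04) and 5.63-fold over the whole span (2.49, standard error 0.25, adjusted p = 5.3e-05), and both passed in all 6 fits that left out 1 library. The rise in the first interval (0.77, standard error 0.20, adjusted p = 0.0456) passed in 2 of 6 such fits and was lost without E10.5 replicate 2 or without any E11.5 library (adjusted p between 0.105 and 0.178). The difference between its changes in the intervals did not pass (second minus first 0.95, standard error 0.38, adjusted p = 0.322). Of the exon bases of Twist2, 46.5% are shared with Gm29100 on the opposite strand, which was itself at 1.05–5.41 CPM. Whether the counting used the strand is not given in the sources used here, so reads of this stretch cannot be told apart. Opposite-strand genes also cover 2.499% of the exon bases of Fn1 and 1.93% of those of Zeb1, and other genes, mostly Zeb2os, cover 3.30% of those of Zeb2.

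**Figure D3:**
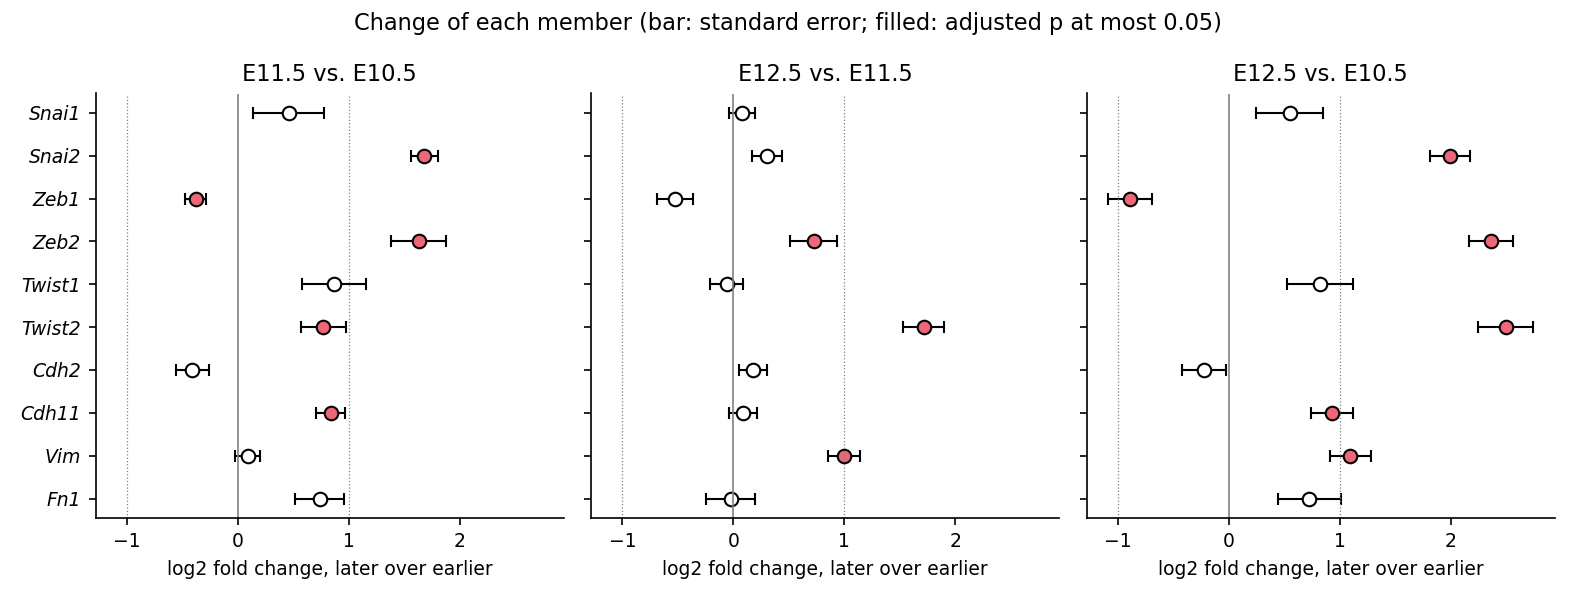
Log2 fold change of the 10 genes, later over earlier stage, in the 3 comparisons (x axis, bars are standard errors, dotted lines mark a 2-fold change). Filled points have an adjusted p of at most 0.05. Snai2 and Zeb2 lie furthest right in the first interval at 1.68 and 1.63, Twist2 in the second interval at 1.71, and Zeb1 lies left of 0 in each.

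In every family the balance of the 2 related genes was compared as a ratio of FPKM within each library, which cancels the library's scaling. Zeb2 stood at 0.214 of Zeb1 at E10.5 (geometric mean, range 0.181–0.253), then at 0.837 (0.541–1.11) and at 2.09 by E12.5 (1.85–2.45), so by FPKM Zeb1 was the higher gene in every E10.5 library and Zeb2 in every E12.5 library. At E11.5 the order depended on the division by length. In CPM, Zeb2 (61.5–119.6) lay above Zeb1 (55.4–58.5) in every library of that stage. The log2 difference of the ratio in FPKM was 3.29 (standard error 0.18) over the whole span. Snai2 stood at 0.272 of Snai1 at E10.5 (0.195–0.489), then at 0.581 (0.563–0.598) and at 0.674 by E12.5 (0.559–0.764), a log2 difference of 1.31 (standard error 0.45) that was 1.73 without E10.5 replicate 3. Snai1 was the higher of that pair in all 9 libraries. Twist2 was at 0.0197, 0.0173 and 0.0592 of Twist1 at the 3 stages, with a log2 difference of 1.77 (standard error 0.22) in the second interval. The exact permutation test (two-sided) gave p = 0.1 for each of these 3 pairs over the whole span, which is the smallest that 3 libraries against 3 allow, and 0.15 after adjustment over 12 tests of 4 pairs.

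**Figure D4:**
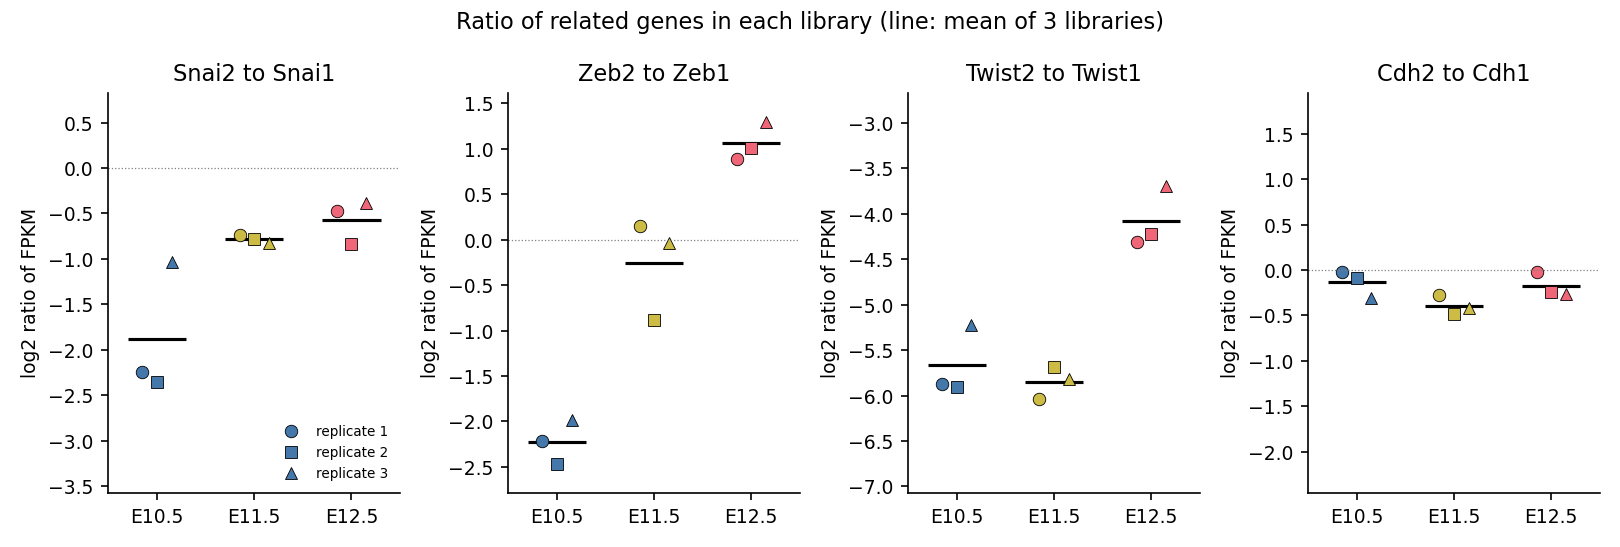
Log2 ratio of FPKM between related genes in each library at the 3 stages (y axes span the same range, lines are means of 3 libraries, the dotted line marks equal levels). Zeb2 to Zeb1 crosses from 0.214 at E10.5 to 2.09 at E12.5 as a linear ratio, Snai2 to Snai1 and Twist2 to Twist1 stay below 1, and Cdh2 to Cdh1 stays between 0.714 and 0.988.

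The FPKM of the 6 factors summed to 211 ± 80.3 at E10.5 (SD, n = 3 libraries), then to 375 ± 19.1 and, at E12.5, to 386 ± 54.2. Twist1 held most of this sum at every stage, 68.6%, 71.4% and 66.0%, and Snai1 held 19.7%, 15.6% and 16.2%. Snai2 went from 5.63% through 9.07% to 10.9%, Zeb2 from 0.870% to 2.06% and Twist2 from 1.37% to 3.97%, whereas Zeb1 went from 3.85% to 0.992%. These shares are a description and include E10.5 replicate 3, whose sum was the lowest (120.0 FPKM). Over E10.5 replicates 1 and 2 the sum was 257 FPKM, with shares of 70.3% for Twist1, 20.9% for Snai1, 4.25% for Snai2, 2.74% for Zeb1, 1.19% for Twist2 and 0.539% for Zeb2.

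Of the 4 mesenchymal markers, Cdh11 rose in the first interval and Vim in the second. Vim (ENSMUSG00000026728, chromosome 2, 13573927–13582826, plus strand) was at 479, 417 and 422 CPM at E10.5, 493, 415 and 490 CPM at E11.5, and 1020.4, 790.2 and 987 CPM at E12.5. E10.5 and E11.5 overlapped, and every E12.5 library lay above them. The log2 fold change was 0.088 (standard error 0.11, adjusted p = 0.664) in the first interval and 0.9955 (standard error 0.14, adjusted p = 0.0015) in the second interval, just under the 2-fold threshold of a DEG. It was over that threshold, and the count of DEGs was 2, without E11.5 replicate 1 (1.03) or 3 (1.02) or E12.5 replicate 2 (1.10). From E10.5 to E12.5 Vim rose 2.14-fold (1.09, standard error 0.18, adjusted p = 0.0016). The rises of Vim passed in all fits that left out 1 library, although the difference between its changes in the intervals did not pass (second minus first 0.92, standard error 0.26, adjusted p = 0.128).

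Cdh11 (ENSMUSG00000031673, chromosome 8, 102632095–102785642, minus strand) was at 307, 272 and 223 CPM at E10.5, 497, 445 and 486 CPM at E11.5, and 488, 561 and 468 CPM at E12.5. All E11.5 libraries lay above all E10.5 libraries, and E12.5 overlapped with E11.5. Cdh11 rose 1.78-fold in the first interval (log2 fold change 0.84, standard error 0.13, adjusted p = 0.0078), with 0.083 (standard error 0.13, adjusted p = 0.692) in the second interval and 0.93 (standard error 0.19, adjusted p = 0.0047) over the whole span. The first rise missed the threshold without E11.5 replicate 1 (0.81, adjusted p = 0.0551) or replicate 3 (0.83, adjusted p = 0.0513).

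Fn1 (ENSMUSG00000026193, chromosome 1, 71585520–71653200, minus strand) was at 486, 555 and 299.7 CPM at E10.5, 858, 642 and 730 CPM at E11.5, and 816, 915 and 469 CPM at E12.5. Replicate 3 was the lowest library both at E10.5 and at E12.5, so these stages overlapped. Fn1 did not pass by the test used here (log2 fold change 0.74, standard error 0.22, adjusted p = 0.0699, in the first interval and 0.72, standard error 0.29, adjusted p = 0.0893, over the whole span). It passed in the first interval without E10.5 replicate 3 (0.52, adjusted p = 0.0018) and over the whole span without E12.5 replicate 3 (0.96, adjusted p = 0.0378). The whole-span change was 0.51 without E10.5 replicate 3 (adjusted p = 0.160), and it ranged from 0.51 to 0.96, with an adjusted p of up to 0.263, when libraries were left out. With all libraries kept, Fn1 passed in 3 of 10 other settings in the first interval, with DESeq2 (adjusted p = 0.0121), no filter on low counts (0.0049) and the GC trend removed (0.0182), and in 2 of 10 over the whole span, no filter (0.0059) and the replicate block (0.0069).

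Cdh2 (ENSMUSG00000024304, chromosome 18, 16588877–16809246, minus strand) was at 134, 139 and 190.1 CPM at E10.5, 119.5, 112 and 116 CPM at E11.5, and 133, 147 and 114 CPM at E12.5. It was highest in E10.5 replicate 3 and otherwise lay between 112 and 147 CPM. N-cadherin did not pass in any of the 3 comparisons (log2 fold changes −0.41, 0.18 and −0.22, standard errors 0.15, 0.12 and 0.19). Without E10.5 replicate 3 the change in the first interval was smaller, −0.23, and passed (adjusted p = 0.0126). Of 10 other settings it passed there in 1, with the GC trend removed (−0.42, adjusted p = 0.0462). Its epithelial counterpart Cdh1, also without a change that passed (−0.18, −0.040 and −0.21), ranged over 77.1–133, 81.8–89.3 and 76.5–98.7 CPM at the 3 stages and was highest in the same E10.5 library. The ratio of Cdh2 to Cdh1 in FPKM was 0.910, 0.761 and 0.885 at the 3 stages, and its log2 difference over the whole span was −0.041 (standard error 0.12, exact permutation p = 0.9, also 0.9 after adjustment).

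Ranked by mean FPKM, Twist1 (147) and Vim (91.6) were highest at E10.5, followed by Snai1 (42.6), Fn1 (37.8), Cdh11 (29.7), Cdh2 (18.9), Snai2 (10.6), Zeb1 (7.10), Twist2 (2.73) and Zeb2 (1.54). The libraries of Twist1 and Vim overlapped, as did those of Snai1 and Fn1 and those of Fn1 and Cdh11. At E12.5 the order was Twist1 (256), Vim (193), Fn1 (61.7), Snai1 (61.6), Cdh11 (55.9), Snai2 (41.7), Cdh2 (16.0), Twist2 (15.3), Zeb2 (7.81) and Zeb1 (3.77). Twist1 and Vim no longer overlapped, while Fn1 overlapped with Snai1, Snai1 with Cdh11, and Cdh2 with Twist2. Snai2 moved above Cdh2, and Zeb1 moved from above Zeb2 and Twist2 to the lowest place.

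Genes related to these factors and markers were counted in lists and changed to different extents. Of all genes tested, 6.19%, 7.61% and 14.0% rose in the first interval, the second interval and the whole span. The shares that fell were 5.58%, 4.57% and 10.5%. At an unadjusted p under 0.05 in edgeR, 4383 of 15708, 4681 of 15808 and 5907 of 15899 genes changed in either direction. The matching shares with DESeq2 are not given here. The list of E proteins and Twist partners held 9 genes, Tcf3, Tcf4, Tcf12, Hand1, Hand2, Id1, Id2, Id3 and Id4. Of the 7 tested, 2 rose (Tcf4 and Id2) and 1 fell (Id4) in the first interval. In the second interval 1 rose (Id4) and 1 fell (Tcf12). Over the whole span 1 rose, near the 14.0% of all genes, and 0 fell (0 fell at an unadjusted p under 0.05 in edgeR and 1 with DESeq2). The gene that rose was Tcf4, which encodes an E protein (log2 fold change 1.01, standard error 0.18). Of 12 Snail and Zeb corepressors, 1 fell and 0 rose in each comparison, near the 5.58%, 4.57% and 10.5% of all genes that fell (1, 1 and 0 rose at an unadjusted p under 0.05 in edgeR, and 0 with DESeq2), and over the whole span the gene that fell was Ctbp2 (−0.51, standard error 0.17), which encodes a C-terminal binding protein that Zeb factors recruit. The median log2 fold change over the whole span was 0.38 for the list with the E proteins and −0.26 for the corepressors, against −0.0063 for all genes tested. The 0.38 is the value of Id2, while Tcf3 and Tcf12 were at −0.10 and −0.17 and did not pass. Of 13 other EMT transcription factors, 2, 0 and 3 rose and 0, 0 and 2 fell in the first interval, the second interval and the whole span. In the second interval, 2 rose and 5 fell at an unadjusted p under 0.05 in edgeR, and 3 fell with DESeq2, while in the first interval 0 fell by either. Over the whole span Gsc (goosecoid, 1.80) and Klf8 (1.24) rose most, and Foxc2 (−1.69) and Sox4 (−1.02) fell. Their median was −0.060. Without E10.5 replicate 3 these 4 also passed, at 1.33 (Gsc), 1.33 (Klf8), −2.08 (Foxc2) and −1.30 (Sox4), and the counts of this list were 3 risen and 5 fallen in the first interval and 3 and 3 over the whole span. Of all genes tested without that library, 19.6% rose and 20.0% fell in the first interval, and 16.6% and 13.4% did over the whole span. Beside these shares, 3 genes of the list with the E proteins rose and 2 fell in the first interval (7 tested). Over the whole span 2 rose and 0 fell (8 tested). Of the 12 corepressors, 2 rose and 2 fell in the first interval without that library, and 1 rose and 1 fell over the whole span.

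The list of epithelial regulators that oppose EMT held 12 genes, among them Cdh1 (E-cadherin), which is no regulator. Of the 12, 2, 2 and 5 rose and 0 fell in the 3 comparisons. Of all genes tested, 6.19%, 7.61% and 14.0% rose and 5.58%, 4.57% and 10.5% fell. Klf4 (log2 fold change 3.80, standard error 0.23) and Elf5 (3.03, standard error 0.32) were highest over the whole span, where the median of the list was 0.30. Klf4 went from 3.42 ± 0.496 to 47.5 ± 8.41 CPM and Elf5 from 1.65 ± 0.718 to 13.4 ± 2.15 CPM, both of them factors of differentiating epithelium. At an unadjusted p under 0.05 in edgeR, 0, 0 and 1 fell, and with DESeq2 0 fell in each comparison. At that unadjusted p, 4383, 4681 and 5907 of all genes changed in either direction, and no share is given for DESeq2. Without E10.5 replicate 3, 3 of the list rose in the first interval and 5 over the whole span, and 0 fell. Of all genes, 19.6% and 16.6% rose in those fits, and 20.0% and 13.4% fell.

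For the lists that follow, 6.19%, 7.61% and 14.0% of all genes tested rose and 5.58%, 4.57% and 10.5% fell. At an unadjusted p under 0.05 in edgeR, 4383, 4681 and 5907 of all genes changed in either direction, and no share is given for DESeq2. Of 16 other mesenchymal markers (14 tested), 9, 8 and 10 rose and 1, 1 and 0 fell in the same order, with a median log2 fold change of 1.10, 0.62 and 1.79 (0 fell over the whole span also at an unadjusted p under 0.05 in edgeR and with DESeq2). Without E10.5 replicate 3, 12 rose and 1 fell in the first interval, where 19.6% and 20.0% of all genes did. Thy1 (4.22) and the collagen gene Col1a1 (4.20) had the largest rises over the whole span. Thy1 was near the floor at E10.5, at 4–8 counts per library, and its mean was 0.336, 8.37 and 6.40 CPM at the 3 stages. Col1a1 went from 41.5 to 758 CPM. Of 12 fibronectin receptors and matrix partners, 5, 3 and 5 rose and 0 fell, led by Tnc (tenascin C, 4.59, standard error 0.41) and the fibulin gene Fbln2 (1.91, standard error 0.34), with medians of 0.76, 0.057 and 0.55. Without E10.5 replicate 3, 11 of these partners rose in the first interval, where 19.6% of all genes did, and Tnc and Fbln2 were at 4.25 and 1.56 over the whole span. In the second interval, 2 of these fell at an unadjusted p under 0.05 in edgeR and with DESeq2, and 0 did in the other comparisons. Of 10 cadherin partners and other cadherins, 2, 2 and 4 rose and 0 fell, with Cdh10 (2.75) and the alpha-catenin gene Ctnna2 (1.81), both known from neurons, highest and a median of 0.14 over the whole span. At an unadjusted p under 0.05 in edgeR, 0, 1 and 0 of these fell, and with DESeq2 0 in each. Without E10.5 replicate 3, 5 of these rose in the first interval and 4 over the whole span, and 0 fell. Of all genes, 19.6% and 16.6% rose in those fits. Of 12 intermediate filament genes beside vimentin (10 tested), 1, 2 and 2 rose and 2, 1 and 2 fell. Over the whole span Prph (3.57), a filament of peripheral neurons, and Lmna (3.53), a nuclear lamin, rose, and Nes (−1.57), a filament of neural progenitors, and Des (−4.22), a filament of muscle, fell, with a median of −0.27. Prph was near the floor at E10.5, at 1–10 counts per library. Without E10.5 replicate 3, 2 of these filament genes rose and 4 fell in the first interval, and 2 and 4 did over the whole span. Of all genes, 20.0% and 13.4% fell in those fits.

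Markers of other cell types were counted beside these changes, where 6.19%, 7.61% and 14.0% of all genes rose and 5.58%, 4.57% and 10.5% fell. At an unadjusted p under 0.05 in edgeR, 4383, 4681 and 5907 of all genes changed in either direction, and no share is given for DESeq2. Markers of facial mesenchyme rose in 4 of 7 genes in the first interval, 0 in the second interval (also 0 at an unadjusted p under 0.05 in edgeR and 0 with DESeq2) and 4 over the whole span. Of 9 markers of forebrain and eye neuroepithelium, 8 fell in the first interval, and their sum over the 3 stages was 297–421, 90.6–102 and 115–150 CPM. Of 5 markers of neural crest glia, 4 rose over the whole span, with sums of 55.6–66.5, 78.6–86.7 and 83.0–119 CPM. Of 10 epithelial markers, 2 rose and 2 fell in the first interval, 2 rose in the second interval, and 2 rose and 3 fell over the whole span. Of 6 neuron markers, 1 rose over the whole span (155–189, 184–207 and 275–312 CPM). Endothelial markers summed to 114–308, 294–308 and 247–314 CPM, and 0 of 6 passed in any comparison in edgeR (0, 1 and 0 at an unadjusted p under 0.05) or with DESeq2. Macrophage markers were at 15.2–25.7, 22.5–25.5 and 27.0–29.4 CPM with 1 of 6 rising over the whole span. The 1 of 6 neuron markers and 1 of 6 macrophage markers are close to the 14.0% of all genes. Red blood cell markers were at 1560–2625, 2743–3065 and 2899–3683 CPM, muscle markers at 8.67–20.7, 3.60–4.66 and 2.59–3.61 CPM, and cartilage markers at 596–970, 403–533 and 410–546 CPM. Of 6 red blood cell markers, 1 rose in the first interval. In the second interval 5 of the 6 fell (also 5 with DESeq2), with a median log2 fold change of −1.03, although their sum did not fall. Over the whole span 2 of the 6 fell, as did 1 of 5 muscle markers (2 tested), and of 5 cartilage markers (4 tested) 1 rose and 2 fell. Cdh1, Des, Grhl2, Prrx1 and Prrx2 each stand in more than a single list of related genes or markers. Without E10.5 replicate 3, 6 markers of facial mesenchyme rose and 1 fell in the first interval, 4 neuron markers rose and 1 fell, 1 endothelial marker rose and 2 fell, and 5 red blood cell markers rose, where 19.6% and 20.0% of all genes did. Epithelial markers then counted 3 risen and 4 fallen in the first interval, and cartilage markers 1 and 3. Over the whole span without that library, 5 facial mesenchyme and 3 neuron markers rose and 0 endothelial markers passed. Of the epithelial markers 2 rose and 3 fell there, where 16.6% of all genes rose and 13.4% fell. No marker of these 10 lists was at or below 3 counts in every library. The part of these cell types in the changes of the EMT genes was not tested.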

How the data were processed

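RNA was extracted with Trizol and made into TruSeq libraries. Per the labels and the paper's methods, the authors mapped reads to GRCm38/mm10 with HISAT2 (version 2.0.5), counted reads per gene with featureCounts and deposited raw counts, without normalization, beside FPKM that they computed from gene length. Columns with the authors' group means, fold changes and p-values for each pair of stages were not used. Strand and multi-mapping settings are not given in the sources used here. Coordinates are the deposited ones and were equal to GENCODE vM21 (GRCm38) for all 10 genes. GC content and exon overlaps came from that annotation.

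Counts were fitted with edgeR 4.0.16 in R 4.3.3 (filterByExpr, TMM, quasi-likelihood test, Benjamini-Hochberg adjustment over all genes tested), on the 6 libraries of each pair of stages, and on all 9 libraries for the tests of 3 stages and of the difference between intervals. The standard error is the absolute log2 fold change over the square root of F. CPM used TMM-scaled library sizes. The fits were tested on simulated counts in which 200 genes were changed. FPKM was used for levels between genes and for ratios. The labels do not say whether pools came from separate litters, so p-values measure the spread between these libraries. Counts are PCR-amplified reads, and their counting error is small at this depth for the 10 genes (108 counts or more in every library). The smallest exact permutation p of 3 libraries against 3 is 0.1, so tests of single genes rest on edgeR's estimate of spread across genes.

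The genes, the lists of related genes and the marker lists were chosen with earlier results of these data known. Every listed gene of the 10 is named with each library's value. Of the other lists, at most the 2 largest rises and 2 largest falls that passed over the whole span are named, and for each of the 10 genes the 2 genes with the nearest profile. The members of the list of E proteins and Twist partners are named as well. Gm29100 and Cdh1 were named because they share exons or are the usual counterpart. Alternatives were DESeq2 (1.42.0) and its size factors, upper quartile scaling, no filter and a stricter filter on low counts, all 9 libraries in a fit, the replicate number as a block, an adjusted p of at most 0.01, hemoglobin genes left out, removal of each library's GC trend (lowess, span 0.3) and each library left out in turn. The GC trend for the tests on all 9 libraries and the alternatives for FPKM ratios, factor shares and lists were added after the data had been seen. DEGs had a log2 fold change of 1 or more in size.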

Additional observations from a re-analysis of the deposited data

Results flagged for a closer look

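Snai2 is listed because its change differed between the intervals by a test of the difference itself. The log2 fold change in E12.5 vs. E11.5 minus that in E11.5 vs. E10.5 was −1.37 (standard error 0.24, edgeR quasi-likelihood test on all 9 libraries, adjusted p = 0.0226). Its adjusted p was above 0.05 in 4 of 15 alternative fits, those without E11.5 replicate 1, 2 or 3 or E12.5 replicate 1, with a highest value of 0.203. The other 9 genes had adjusted p-values of 0.128 or more for this difference.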

How the results depend on the processing

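In E11.5 vs. E10.5, the 5 of 10 genes past the test became 3 at an adjusted p of at most 0.01, 3 with the replicate block and 8 with each library's GC trend removed, and 2–8 when libraries were left out in turn, with 8 without E10.5 replicate 3 and 2 without E11.5 replicate 1 or 3. That comparison had 2 DEGs under every setting. In E12.5 vs. E11.5, the 1 DEG became 2 with upper quartile scaling, with all 9 libraries in the fit and with the GC trend removed, and 1–2 when libraries were left out. The number of genes whose intervals differed was 1, and 2 without a filter on low counts, and 0–2 when libraries were left out, with 0 without any E11.5 library or E12.5 replicate 1. Over the whole span, 6–7 genes passed and 4–6 were DEGs when libraries were left out, and under the 10 other settings 6–9 passed (9 with no filter on low counts) and 4 were DEGs. With the GC trend removed, 16.3% of all genes rose and 15.1% fell over the whole span. Shares of all genes are given only for the main fits and, in comparisons with E10.5, without E10.5 replicate 3 and with the GC trend removed. The counts under other settings are therefore no result about these genes as a set. The log2 fold change in E12.5 vs. E11.5 changed sign for Fn1 with upper quartile scaling (0.025) and without E11.5 replicate 1 (0.076) or E12.5 replicate 3, with a range of −0.22 to 0.21 when libraries were left out. It did for Snai1 with the GC trend removed (−0.10) and without E11.5 replicate 2 (range −0.019 to 0.11), and without E12.5 replicate 2 for Twist1 (range −0.23 to 0.048) and Cdh11 (−0.0042 to 0.13). The difference between intervals for Zeb1 ranged from −0.25 to 0.025 (without E12.5 replicate 3). None of these had passed the test. Of 630 values for single genes under the alternatives, 565 kept direction and side of the threshold, 28 passed newly, 29 were lost and 8 changed sign. The cause was not tested.

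The replicate numbers do not pair the libraries by their labels, and the deviations of libraries with the same number correlated between −0.15 and 0.22. With the replicate block, Zeb1 (−0.38, adjusted p = 0.129) and Twist2 (0.78, adjusted p = 0.0879) no longer passed in E11.5 vs. E10.5, Zeb1 passed in E12.5 vs. E11.5 (−0.55, adjusted p = 0.0307), and Twist1 and Fn1 passed over the whole span (0.90 and 0.71, adjusted p = 0.0163 and 0.0069). The log2 ratio of Snai2 to Snai1 in E12.5 vs. E11.5 was 0.21, and 0.45 with the GC trend removed.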

Other observations

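For each of the 10 genes, the nearest profiles were sought among 16375 genes, as the smallest root-mean-square difference of centred log2 CPM over the 9 libraries. Snai1 was nearest to Vasn and Bmp1 (0.105 each). Twist1 was nearest to Cacng8 and Rph3al (0.106 and 0.120), and Fn1 to Bcl9l and Ccdc92b (0.117 and 0.135). Snai2 was nearest to 5930412G12Rik and Tmem100 (0.161 and 0.168), Zeb2 to Trps1 and St6galnac5 (0.160 and 0.163), and Twist2 to H2-T23 and Myl9 (0.119 and 0.176). Zeb1 was nearest to Prep and Parp1 (0.0656 and 0.0681). Cdh2 was nearest to Phtf2 and Fam98a (0.0717 and 0.0835), Cdh11 to Sv2a and Epha4 (0.0897 and 0.0929), and Vim to Tubb2a and Fam213a (0.0964 and 0.117). Smaller values are closer. Profiles that include library differences as well as stages are a description, and nothing is drawn from them about shared function or control.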
